A study of Mus musculus with 4 samples.

Results

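The miR-106b~25 cluster is a group of 3 microRNA (miRNA) hairpins, miR-106b, miR-93 and miR-25, that lie in 1 intron of the mouse gene Mcm7. Its members are the 6 rows of the count table that carry their names, mmu-miR-106b-5p, mmu-miR-106b-3p, mmu-miR-93-5p, mmu-miR-93-3p, mmu-miR-25-5p and mmu-miR-25-3p, out of 847 rows in all. The 5p and 3p names stand for the arms of each hairpin. The study sorted macrophages from spleen and bone marrow (BM) of C57BL/6J mice and sequenced their small RNA, to compare leukaemia-associated macrophages with those at homeostasis. There were 4 libraries. AML BM and AML spleen came from mice that had received GFP+ MLL-AF9 acute myeloid leukaemia (AML) cells without irradiation, taken at day 18. Normal BM and normal spleen came from normal mice, given as day 0 per the labels' protocols. All mice were of the same strain, and the age label of every library is 6-8 weeks. MLL-AF9 is a fusion oncogene that drives AML in mice. Each group is 1 library, so every statement compares single libraries and none can be set against a spread between replicates. The sources used here do not say whether a library pooled several mice or by which surface markers the macrophages were sorted.

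Mature miRNAs guide Argonaute proteins to messenger RNAs, and bases 2 to 8 of the miRNA, the seed, do most of the target recognition. The host gene Mcm7 encodes a subunit of the helicase that unwinds DNA at replication, and E2F factors drive its transcription in dividing cells. miR-106b-5p and miR-93-5p belong to the family of miR-17, which is known to restrain the cell cycle inhibitor p21, while miR-25-3p belongs to the family of miR-92a, known to restrain the pro-apoptotic protein Bim. The cluster is a paralogue of miR-17~92 on mouse chromosome 14 and of the miR-106a cluster on chromosome X.

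The hairpins stand in the order miR-106b, miR-93, miR-25 along the direction of transcription. All lie on the minus strand of chromosome 5 in intron 13 of Mcm7 (transcript Mcm7-201, GENCODE M21, GRCm38), an intron of 748 bases at chr5:138165162-138165909. The hairpins together span 498 bases, with gaps of 126 bases between miR-106b and miR-93 and 118 bases between miR-93 and miR-25. The build behind the deposited counts is not stated in the labels or headers, and rows were matched to sequences by miRNA name. All 6 members matched a RefSeq mature sequence (GRCm38.p6). The hairpins are shown 5′ to 3′ with both mature arms in capitals, because the arms of each hairpin are measured separately below.
miR-106b, chr5:138165737-138165818: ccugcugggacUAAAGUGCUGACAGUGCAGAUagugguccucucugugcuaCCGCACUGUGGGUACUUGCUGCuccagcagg
miR-93, chr5:138165523-138165610: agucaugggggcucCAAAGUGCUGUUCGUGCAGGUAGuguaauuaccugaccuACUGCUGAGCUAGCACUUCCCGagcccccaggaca
miR-25, chr5:138165321-138165404: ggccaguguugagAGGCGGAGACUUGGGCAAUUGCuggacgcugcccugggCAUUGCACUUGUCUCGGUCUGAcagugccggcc

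**Figure D1:**
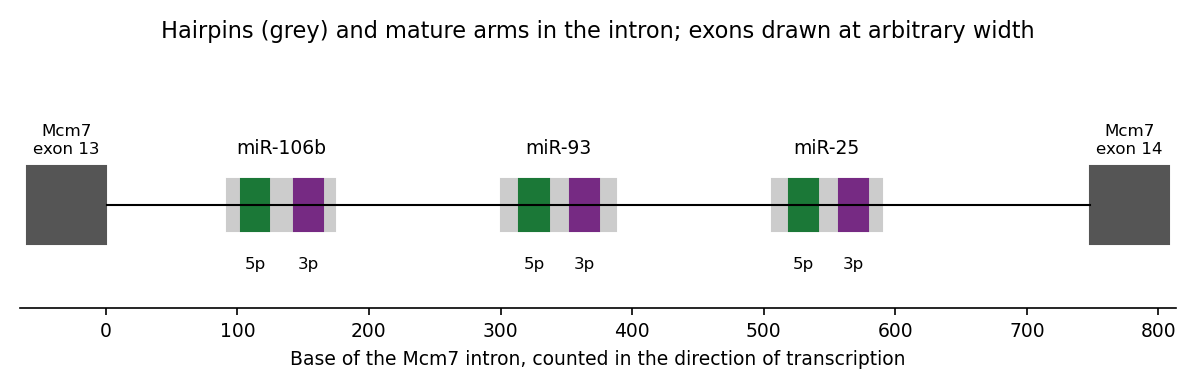
Map of the Mcm7 intron that holds the cluster, with the base of the intron in the direction of transcription on the x axis. Grey boxes are the 3 hairpins, green and purple boxes the 5p and 3p mature arms, and dark boxes the flanking exons, whose width is not to scale; all 3 hairpins lie within the intron of 748 bases.

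The mature arms are shown with the seed in capitals, since the seed decides which other miRNAs of the table each member is set beside.
miR-106b-5p: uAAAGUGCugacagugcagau
miR-93-5p: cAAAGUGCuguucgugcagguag
miR-17-5p: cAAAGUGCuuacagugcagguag
miR-20a-5p: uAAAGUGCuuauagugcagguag
miR-25-3p: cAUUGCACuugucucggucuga
miR-92a-3p: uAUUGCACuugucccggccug
miR-106b-3p: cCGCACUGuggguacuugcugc
miR-25-5p: aGGCGGAGacuugggcaauugc
miR-93-3p: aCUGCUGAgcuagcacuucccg
miR-106b-5p and miR-93-5p share their seed with each other and with miR-17-5p and miR-20a-5p of the miR-17~92 cluster. Counted from 1 at the 5′ end and with both starts aligned, miR-106b-5p differed from miR-17-5p at 3 of 21 positions (U1C, G10U and A20G) and from miR-93-5p at 5 of 21. miR-93-5p differed from miR-17-5p at 4 of 23 positions, G10U, U11A, U12C and C13A. miR-25-3p differed from miR-92a-3p at 3 of 21 positions (C1U, U14C and U18C), so the seed relatives can be told apart by their sequence, although neither labels nor headers state how many mismatches the deposited counting allowed. The seeds of miR-106b-3p, miR-25-5p and miR-93-3p were shared with no other mature mouse miRNA of the RefSeq table.

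The libraries held 271209 reads in AML BM and 180227 in AML spleen, against 206652 in normal BM and 435492 in normal spleen. A level is given in CPM, counts per 1000000 reads of a library scaled by TMM. A ratio is given as its log2, followed in brackets by a 95% exact conditional interval, which covers counting error only. A miRNA was compared between 2 libraries when the larger count was at least 30, and called different when it differed at least 2-fold and the interval excluded 0. Among the 4 myeloid and pan-haematopoietic markers, which bear on the sort, the myeloid miR-223-3p had 12 counts in AML BM and 4 in AML spleen, against 10 in normal BM and 28 in normal spleen. Its other arm miR-223-5p had 149 in AML BM and 10 in AML spleen, against 42 in normal BM and 36 in normal spleen. The pan-haematopoietic miR-142a-3p had 170 in AML BM and 253 in AML spleen, against 31 in normal BM and 1704 in normal spleen. Both arms of miR-223 were thus sparse beside miR-142a-3p in the spleen libraries, and no marker of the 6 lists was at 0 in any library. In every library but normal spleen the 4 muscle and liver markers summed to more CPM than the 4 myeloid and pan-haematopoietic markers. In normal BM the sums were 42397 and 723 CPM, and in normal spleen 3242 and 7179 CPM. How far each library represents macrophages was not tested. In bulk libraries, fewer cells of a type and less RNA per cell cannot be told apart.

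The AML library held more of the cluster as a whole than its normal counterpart in BM and less in the spleen, and the highest library was normal spleen. The 6 members summed to 2676 counts in AML BM and 1067 in AML spleen, against 1326 in normal BM and 4742 in normal spleen. After scaling, these sums were 9543 CPM in AML BM and 5530 CPM in AML spleen, against 6394 CPM in normal BM and 12094 CPM in normal spleen. The order of levels was thus normal spleen, AML BM, normal BM and AML spleen, and the steps above normal BM were larger than counting error. The last step depends on the scaling. AML spleen over normal BM had a log2 ratio of -0.21 [-0.33 to -0.09] with TMM and -0.21 [-0.33 to -0.10] with DESeq2 size factors, but -0.12 [-0.23 to 0.001] on total counts and 0.058 [-0.06 to 0.18] on totals without the 10 most abundant rows.

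The largest member was miR-25-3p, the arm with the miR-92a seed. It had 1149 counts in AML BM and 467 in AML spleen, against 613 in normal BM and 2116 in normal spleen. These were 4098 and 2420 CPM in AML BM and AML spleen, against 2956 and 5397 CPM in normal BM and normal spleen, in the same order over the libraries as the cluster sum. Its lowest pair, AML spleen over normal BM, stood at -0.29 [-0.47 to -0.11], and at -0.021 [-0.20 to 0.16] on totals without the 10 most abundant rows. It ranked between the 32nd and the 53rd of the 847 rows in every library.

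The opposite arm, miR-25-5p, had 683 counts in AML BM and 130 in AML spleen, against 297 in normal BM and 677 in normal spleen. With 2436 CPM in AML BM and 674 CPM in AML spleen, against 1432 CPM in normal BM and 1727 CPM in normal spleen, its highest library was AML BM rather than normal spleen. All 6 pairs of libraries differed beyond counting error for this arm with TMM. The closest was normal spleen over normal BM at 0.27 [0.07 to 0.47], which counting error covers on total counts, at 0.11 [-0.09 to 0.31].

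miR-106b-3p, the arm of miR-106b outside the miR-17 family, had 534 counts in AML BM and 188 in AML spleen, against 239 in normal BM and 960 in normal spleen. Its levels were 1904 CPM in AML BM and 974 CPM in AML spleen, against 1152 CPM in normal BM and 2448 CPM in normal spleen. The lowest pair, AML spleen and normal BM, did not differ beyond counting error, with a log2 ratio of -0.24 [-0.53 to 0.04].

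miR-93-5p, the main carrier of the miR-17 seed in the cluster, had 264 counts in AML BM and 241 in AML spleen, against 152 in normal BM and 914 in normal spleen. Scaled, this was 942 CPM for AML BM and 1249 CPM for AML spleen, against 733 CPM for normal BM and 2331 CPM for normal spleen, and both spleen libraries stood above both BM libraries. Every pair of libraries differed beyond counting error, the closest being AML BM over normal BM at 0.36 [0.07 to 0.66].

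miR-106b-5p, the other member with the miR-17 seed, was thinly covered, with 44 counts in AML BM and 39 in AML spleen, against 22 in normal BM and 61 in normal spleen. Its levels were 157 CPM in AML BM and 202 CPM in AML spleen, against 106 CPM in normal BM and 156 CPM in normal spleen. AML spleen was its highest library. Of its 6 pairs of libraries only AML spleen over normal BM differed beyond counting error with TMM, at 0.93 [0.14 to 1.75]. miR-93-3p had 2 counts in AML BM, 2 in AML spleen, 3 in normal BM and 14 in normal spleen and was compared in no pair. The 5 other members were compared in each comparison that follows.

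**Figure D2:**
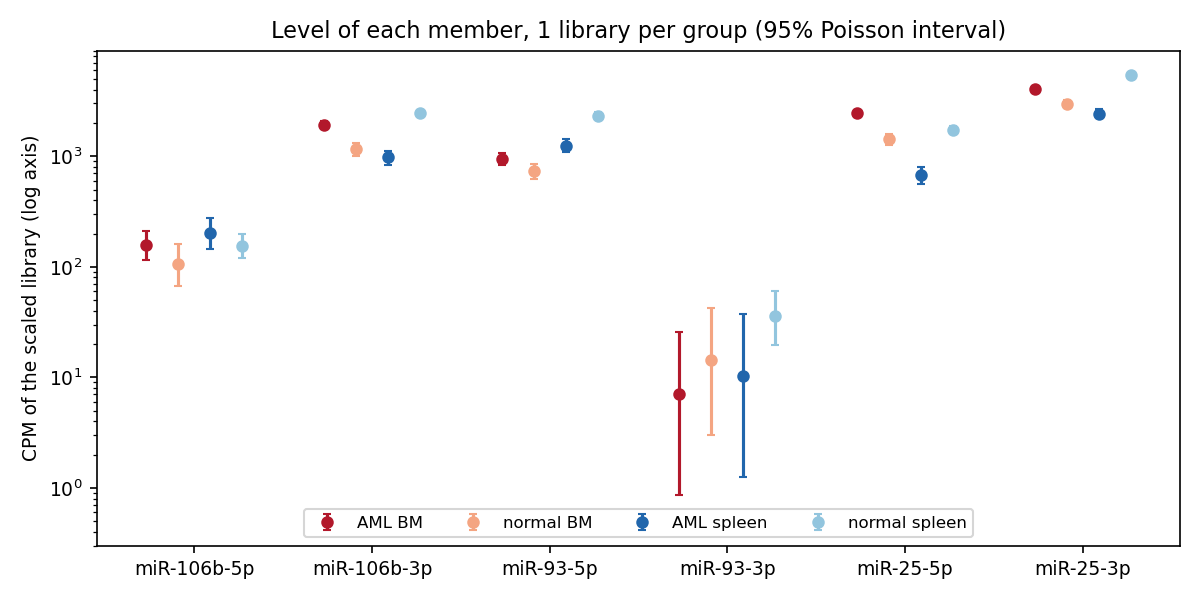
Level of each of the 6 members in CPM of the scaled library (log axis) in AML BM, normal BM, AML spleen and normal spleen, 1 library each. Points are single libraries and bars 95% exact Poisson intervals; miR-25-3p lies highest, between 2420 and 5397 CPM, and miR-93-3p rests on 2 to 14 counts.

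In BM, the AML library had more of every member compared than the normal library, all by less than 2-fold. The log2 ratios of AML BM over normal BM were 0.72 [0.50 to 0.95] for miR-106b-3p, 0.77 [0.57 to 0.97] for miR-25-5p and 0.47 [0.33 to 0.61] for miR-25-3p. They were 0.36 [0.07 to 0.66] for miR-93-5p and 0.56 [-0.20 to 1.37] for miR-106b-5p, whose interval included 0. None of the 5 reached 2-fold, against 25.5% of the 216 miRNAs compared. The members' median was 0.56, beside 0.003 over all miRNAs compared. For the cluster sum the log2 ratio was 0.58 [0.48 to 0.67], a 1.49-fold difference.

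In the spleen, the AML library had less of the cluster than the normal library, except for miR-106b-5p. The log2 ratios of AML spleen over normal spleen were -1.33 [-1.56 to -1.10] for miR-106b-3p, -1.36 [-1.64 to -1.08] for miR-25-5p and -1.16 [-1.30 to -1.01] for miR-25-3p, all called lower. miR-93-5p stood at -0.90 [-1.11 to -0.69] and miR-106b-5p at 0.38 [-0.24 to 0.98], neither called. Thus 3 of 5 members compared were lower and none higher, while of the 216 miRNAs compared 21.3% were lower and 46.3% were called in either direction. The members' median was -1.16 and that of all miRNAs compared -0.25. The cluster sum stood at -1.13 [-1.23 to -1.03], or 0.457 of the normal spleen level. On total counts, which move every ratio of this comparison by 0.25, the sum stood at -0.88 and miR-25-3p at -0.91, both under 2-fold. With DESeq2 size factors miR-93-5p passed 2-fold at -1.14.

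For the cluster sum, the log2 AML ratio of the spleen minus that of the BM was -1.71 [-1.84 to -1.57], so the spleen ratio lay below. By member the difference was -2.05 [-2.38 to -1.73] for miR-106b-3p, -2.12 [-2.47 to -1.78] for miR-25-5p, -1.63 [-1.83 to -1.42] for miR-25-3p and -1.26 [-1.63 to -0.90] for miR-93-5p. For miR-106b-5p it was -0.19 [-1.21 to 0.82], which counting error covers. A difference of at least 2-fold in this direction was thus seen for 4 of 5 members, and for 34.4% of the 186 miRNAs compared in both tissues (64.5% in either direction), whose median difference was -0.38. For 4 of 5 members the AML library was higher in BM and lower in the spleen with both intervals excluding 0, beside 30.1% of the 186 miRNAs (53.8% in either opposite direction). This count rests on the same ratios as the one before. The members are arms of 3 hairpins in 1 intron and so are not independent of each other.

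With tissue as a covariate, edgeR's quasi-likelihood test over all 4 libraries called no member for the AML effect, and 0.00% of the 246 miRNAs tested. No miRNA had an unadjusted p under 0.05, and DESeq2 and limma also called 0. The fitted log2 differences of AML minus normal were -0.30 for miR-106b-3p, -0.34 for miR-25-3p, -0.29 for miR-25-5p, -0.27 for miR-93-5p and 0.47 for miR-106b-5p, each with a Benjamini-Hochberg adjusted p of 0.998 (edgeR). This model has 1 residual degree of freedom and treats as noise an AML effect that differs between the tissues, such as the one above.

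Between the normal libraries, the spleen had more of the cluster than the BM, and miR-93-5p differed most. The log2 ratio of normal spleen over normal BM was 1.67 [1.42 to 1.93] for miR-93-5p, a 3.18-fold difference, and 1.09 [0.88 to 1.30] for miR-106b-3p. miR-25-3p stood at 0.87 [0.74 to 1.00], miR-106b-5p at 0.55 [-0.17 to 1.33] and miR-25-5p at 0.27 [0.07 to 0.47]. So 2 of 5 members were higher and none lower, while of the 234 miRNAs compared 30.8% were higher, 35.5% lower and 66.2% called in either direction, and the members' median was 0.87 against 0.19 over all. The cluster sum stood at 0.92 [0.83 to 1.01]. With DESeq2 size factors the sum reached 1.16 and miR-25-3p was called as well, whereas on total counts miR-106b-3p stood under 2-fold at 0.93.

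Between the AML libraries the members diverged. The log2 ratio of AML spleen over AML BM was -1.85 [-2.14 to -1.58] for miR-25-5p, the single member called, beside 35.1% of the 211 miRNAs compared that were called in either direction. miR-106b-3p stood at -0.97 [-1.21 to -0.72] and miR-25-3p at -0.76 [-0.92 to -0.60], while miR-93-5p stood above 0 at 0.41 [0.15 to 0.67] and miR-106b-5p at 0.37 [-0.29 to 1.02]. The cluster sum stood at -0.79 [-0.89 to -0.68]. This comparison and the preceding ones share libraries, so their ratios are not independent of each other.

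**Figure D3:**
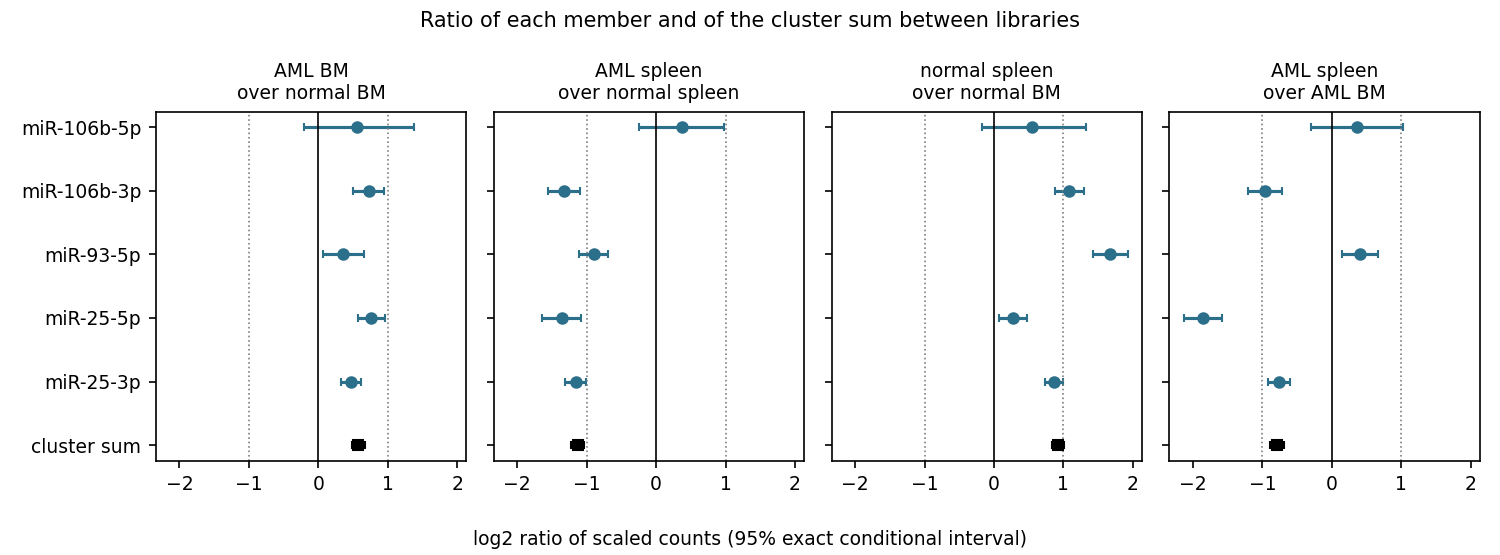
Log2 ratio of scaled counts for the 5 members compared and for the sum of all 6 (black square) in the 4 comparisons, with 95% exact conditional intervals. The dotted lines mark 2-fold; all ratios lie above 0 for AML BM over normal BM, and all but that of miR-106b-5p lie below 0 for AML spleen over normal spleen.

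Shares of reads within a library need no scaling. How evenly different sequences were captured was not tested, so a share of reads is not a share of molecules in the cells. The shares of the miR-93 and miR-25 hairpins separated the spleen libraries from the BM libraries. The miR-93 hairpin held 9.94% of the cluster's reads in AML BM and 22.8% in AML spleen, against 11.7% in normal BM and 19.6% in normal spleen. The exact binomial 95% intervals reached from 18.4% to 25.4% over the spleen libraries and from 8.83% to 13.5% over the BM libraries. The miR-25 hairpin ran the other way, with 1832 of 2676 reads (68.5%) in AML BM and 597 of 1067 in AML spleen, against 910 of 1326 (68.6%) in normal BM and 2793 of 4742 (58.9%) in normal spleen. The miR-106b hairpin lay between 19.7% and 21.6% in all 4 libraries, and its intervals overlapped. Since the hairpin shares of a library add up to the whole, the miR-25 share mirrors the miR-93 share and is not a separate result. These hairpins sit in the same intron, yet the ratio of miR-93-5p to miR-25-3p reads was 0.230 in AML BM and 0.516 in AML spleen, against 0.248 in normal BM and 0.432 in normal spleen. On the log2 scale this ratio differed by 1.17 [0.86 to 1.47] for AML spleen over AML BM and by 0.80 [0.52 to 1.09] for normal spleen over normal BM. Within a tissue it differed by -0.11 [-0.44 to 0.22] for AML BM over normal BM and by 0.26 [-0.001 to 0.51] for AML spleen over normal spleen, which counting error covers.

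The arms of the hairpins differed in which one dominated the reads. By reads, miR-106b was mostly 3p and miR-93 almost wholly 5p. miR-25 was mostly 3p with a large 5p share. The 5p arm held 7.61% (5.59% to 10.1%) of the miR-106b reads in AML BM and 17.2% (12.5% to 22.7%) in AML spleen, against 8.43% (5.36% to 12.5%) in normal BM and 5.97% (4.60% to 7.61%) in normal spleen. AML spleen thus stood apart from AML BM and from normal spleen, with log2 ratios of the 5p to 3p odds of 1.33 [0.62 to 2.03] and 1.71 [1.04 to 2.36]. Among hairpins with at least 30 reads in each library, 29.2% of 89 differed by at least 2-fold in this way between AML spleen and normal spleen, and 17.4% of 92 between AML spleen and AML BM. The difference rests on 39 reads of miR-106b-5p in AML spleen.

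For miR-25 the 5p arm held 37.3% (35.1% to 39.5%) of reads in AML BM and 21.8% (18.5% to 25.3%) in AML spleen, against 32.6% (29.6% to 35.8%) in normal BM and 24.2% (22.7% to 25.9%) in normal spleen. The BM libraries both lay above the spleen libraries, and neither AML library differed by 2-fold from its normal counterpart, as 16.7% of 96 hairpins did in BM. The log2 ratio of the 5p to 3p odds was -1.09 [-1.42 to -0.78] for AML spleen over AML BM and -0.60 [-0.84 to -0.36] for normal spleen over normal BM. It was 0.30 [0.05 to 0.54] for AML BM over normal BM and -0.20 [-0.52 to 0.11] for AML spleen over normal spleen. For miR-93 the 5p arm held between 98.1% and 99.2% of reads in every library.

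**Figure D4:**
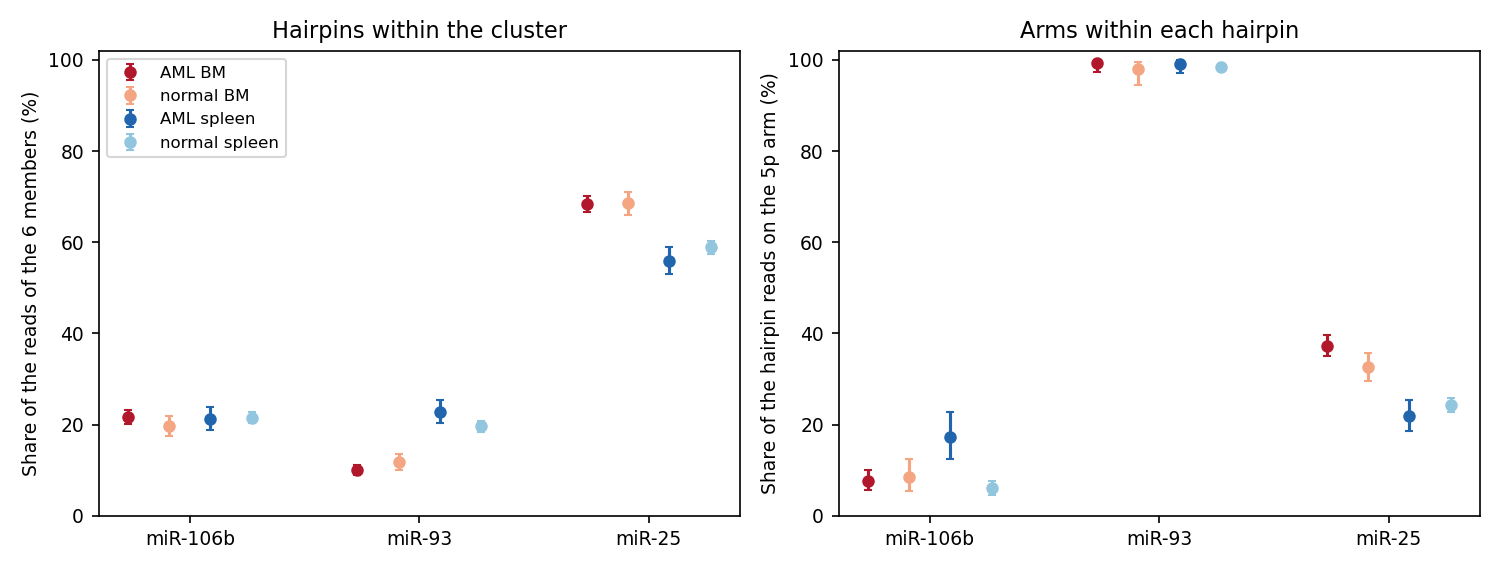
Left, the share of the reads of the 6 members that each hairpin held; right, the share of each hairpin's reads on its 5p arm, in percent, for AML BM, normal BM, AML spleen and normal spleen with exact binomial 95% intervals. The miR-93 share is 22.8% and 19.6% in AML and normal spleen and 9.94% and 11.7% in AML and normal BM, and the 5p share of miR-106b is highest in AML spleen at 17.2%.

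Within the miR-17 seed family, the members of the cluster supplied most reads in 3 of the 4 libraries. miR-93-5p and miR-106b-5p together held 59.3% of 519 reads with this seed in AML BM and 71.4% of 392 in AML spleen, against 45.0% of 387 in normal BM and 74.5% of 1309 in normal spleen. The exact binomial interval of normal BM reached up to 50.1%, below that of each other library. miR-20a-5p of the miR-17~92 cluster held 16.0% in AML BM and 13.0% in AML spleen, against 36.4% in normal BM and 7.10% in normal spleen. The ratio of miR-93-5p to miR-20a-5p was 3.18 in AML BM and 4.73 in AML spleen, against 1.08 in normal BM and 9.83 in normal spleen. It was thus higher in AML BM than in normal BM by 1.56 [1.06 to 2.07] on the log2 scale, and lower in AML spleen than in normal spleen by -1.06 [-1.61 to -0.49]. miR-20a-5p itself stood at -1.20 [-1.61 to -0.80] for AML BM over normal BM and 0.16 [-0.37 to 0.66] for AML spleen over normal spleen. Against miR-17-5p, the ratio of miR-93-5p was 4.55 in AML spleen and 4.55 in normal spleen, with a log2 difference interval of -0.49 to 0.51. In BM this ratio was 2.32 in AML BM and 2.49 in normal BM. The log2 difference there was -0.11 [-0.67 to 0.45], which counting error covers. miR-106b-5p and miR-17-5p stood at a ratio of 0.736 in AML spleen and 0.303 in normal spleen, a log2 difference of 1.28 [0.50 to 2.04].

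**Figure D5:**
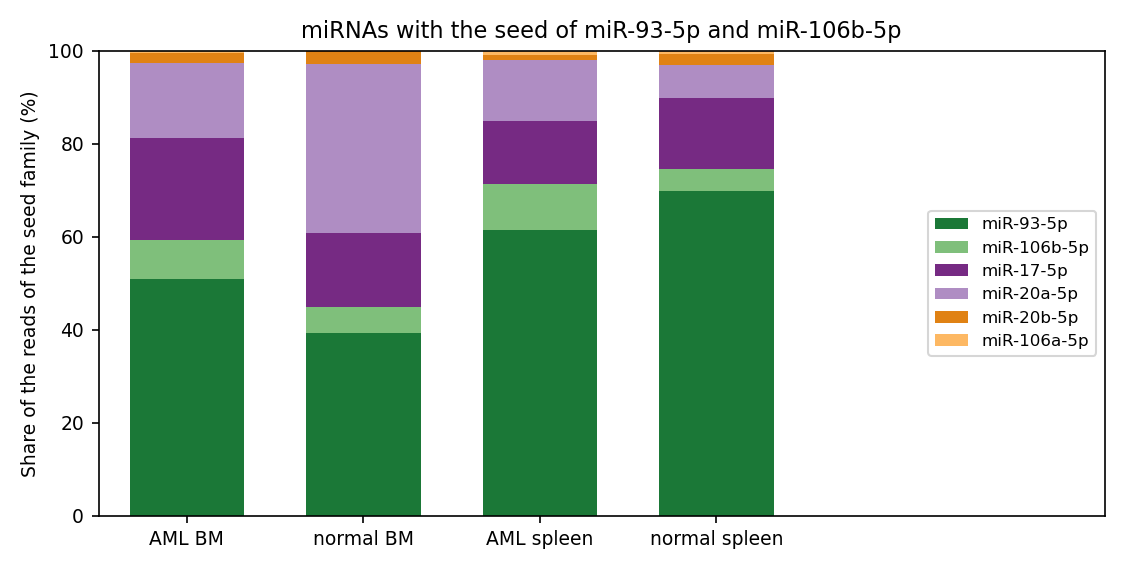
Share in percent of the reads with the seed of miR-93-5p and miR-106b-5p that each miRNA of the family held in AML BM, normal BM, AML spleen and normal spleen, stacked to 100% in each library. The 2 green parts are the cluster's members, which together hold 59.3%, 45.0%, 71.4% and 74.5% in that order.

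Within the miR-92a seed family, miR-25-3p was a small part of the reads in every library. It held 4.08% (3.85% to 4.32%) of the reads with this seed in AML BM and 3.81% (3.48% to 4.16%) in AML spleen, against 3.77% (3.48% to 4.07%) in normal BM and 3.14% (3.01% to 3.27%) in normal spleen, while miR-92a-3p held 95.5% to 96.7%. The ratio of miR-25-3p to miR-92a-3p was higher in AML spleen than in normal spleen by 0.29 [0.14 to 0.44] on the log2 scale, with log2 ratios of -1.16 for miR-25-3p and -1.45 for miR-92a-3p. In BM it differed by 0.12 [-0.03 to 0.26], which counting error covers.

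Set against its paralogues, the cluster sum was 0.0980 of the miR-17~92 sum in AML BM and 0.0899 in AML spleen, against 0.0836 in normal BM and 0.0720 in normal spleen. Of the 12 rows listed for miR-17~92, 10 were in the table, and miR-92a-3p made up 26906 of their 27309 counts in AML BM. With miR-92a-3p, which also arises from the X-linked cluster, left out, the cluster sum was 6.64 times the rest of miR-17~92 in AML BM and 7.85 times in AML spleen, against 4.33 times in normal BM and 7.98 times in normal spleen. Normal spleen over normal BM then stood at 0.88 [0.66 to 1.10] on the log2 scale, against -0.21 [-0.31 to -0.12] with miR-92a-3p, so the direction depends on that row. For AML spleen over normal spleen the values were -0.025 [-0.31 to 0.27] without it and 0.32 [0.22 to 0.42] with it. For the miR-106a cluster, 7 of 10 listed rows were in the table. miR-92a-3p and miR-19b-3p arise from both clusters and were counted with miR-17~92 only, so the whole level of the miR-106a cluster is not known. Its 7 rows held 165 counts in AML BM and 55 in AML spleen, against 133 in normal BM and 173 in normal spleen. The miR-17~92 rows without miR-92a-3p held 403 and 136 counts in AML BM and AML spleen, against 306 and 594 in normal BM and normal spleen. For AML BM over normal BM the log2 ratio was 0.58 for the miR-106b~25 sum and -0.12 [-0.46 to 0.22] for the sum of the 7 miR-106a cluster rows. For AML spleen over normal spleen it was -1.13 for the miR-106b~25 sum and -0.63 [-1.10 to -0.18] for the sum of these 7 rows.

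Likeness to other miRNAs was measured as the root mean square difference of centred log2 levels over the 4 libraries, among the 140 other rows that reached 30 counts in each library. The 5 rows closest to the cluster sum were miR-17-5p (0.094), miR-221-3p (0.11), miR-1964-3p (0.15), miR-92a-3p (0.17) and miR-425-5p (0.17), beside a median of 0.67 over the 140 rows. miR-25-3p supplied 42.9% to 46.2% of the cluster's reads and miR-106b-3p 17.6% to 20.2%, so their profiles largely set that of the sum. These profiles, 0.11 apart, had miR-17-5p, miR-92a-3p, miR-1964-3p and miR-425-5p among their closest 5. miR-221-3p (0.087) was closest to miR-25-3p and miR-181b-5p (0.12) to miR-106b-3p. From the cluster sum, miR-93-5p lay 0.50 and miR-25-5p 0.44. miR-93-5p lay 0.94 from miR-25-5p. Its closest rows were miR-361-3p (0.049), miR-501-3p (0.11), miR-326-3p (0.13), miR-532-5p (0.15) and miR-574-5p (0.18). Closest to miR-25-5p were miR-146b-5p (0.26), miR-130b-5p (0.26), miR-1981-5p (0.28), miR-149-5p (0.30) and let-7i-5p (0.34). miR-20a-5p, from the paralogous cluster, was 82nd of the 140 by closeness to the cluster sum. With 4 libraries these likenesses are a description only.

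Summed marker lists of several cell types stood in the same direction as the cluster or the opposite one, though not every marker followed its list. The 5 lymphocyte markers summed to 41754 CPM in AML BM and 46274 CPM in AML spleen, against 16125 CPM in normal BM and 105930 CPM in normal spleen. The 4 myeloid and pan-haematopoietic markers summed to 1797 and 2488 CPM in AML BM and AML spleen, against 723 and 7179 CPM in normal BM and normal spleen, so both lists stood above normal in AML BM and below normal in AML spleen, as the cluster sum did. By marker, 3 of 5 lymphocyte and 3 of 4 myeloid and pan-haematopoietic markers did so. These counts go by sign alone, and the share by sign over all miRNAs was not computed. With both intervals excluding 0, 30.1% of the 186 miRNAs compared in both tissues ran in this direction and 53.8% in either opposite direction. Most of the lymphocyte sum was miR-181a-5p. It had 36519 and 33057 CPM in AML BM and AML spleen, against 13150 and 73049 CPM in normal BM and normal spleen. miR-150-3p ran opposite, with 353 and 2493 CPM in AML BM and AML spleen, against 400 and 1892 CPM in normal BM and normal spleen. miR-342-3p was below normal in both tissues, with 121 and 627 CPM against 154 and 2002 CPM. The arms of miR-142a and miR-223 differed between the tissues: miR-142a-3p had 606 CPM in AML BM and 1311 CPM in AML spleen, against 149 CPM in normal BM and 4346 CPM in normal spleen, whereas miR-223-5p had 531 CPM in AML BM and 51.8 CPM in AML spleen, against 203 CPM in normal BM and 91.8 CPM in normal spleen. The 7 stromal and endothelial markers ran the other way, with 22057 CPM in AML BM and 22012 CPM in AML spleen, against 31817 CPM in normal BM and 3642 CPM in normal spleen. So did the 4 muscle and liver markers, with 13520 CPM in AML BM and 14938 CPM in AML spleen, against 42397 CPM in normal BM and 3242 CPM in normal spleen. By sign alone, this was the direction of 6 of 7 and 4 of 4 of their markers. The 5 erythroid markers summed to 13937 CPM in AML BM and 15601 CPM in AML spleen, against 14071 CPM in normal BM and 17960 CPM in normal spleen. That sum was mostly miR-486a, and its members ran opposite ways. miR-486a-5p had 6344 CPM in AML BM and 6945 CPM in AML spleen, against 4403 CPM in normal BM and 8840 CPM in normal spleen, while miR-451a had 1152 CPM in AML BM and 1840 CPM in AML spleen, against 5126 CPM in normal BM and 474 CPM in normal spleen. The leukaemic blast list of miR-196b-5p and miR-10a-5p summed to 23548 CPM in AML BM and 19944 CPM in AML spleen, against 31788 CPM in normal BM and 5432 CPM in normal spleen, nearly all of it miR-10a-5p. miR-196b-5p stood the other way, as the cluster did, with 699 CPM in AML BM and 25.9 CPM in AML spleen, against 386 CPM in normal BM and 86.7 CPM in normal spleen. The sum of the blast list was highest in normal BM, from normal mice, so it cannot be read as a measure of blasts here. The part of these cell types in the levels of the cluster was not tested.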

How the data were processed

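RNA of macrophages sorted from BM and spleen was extracted with a QIAGEN RNeasy kit and miRNA libraries were run on an Illumina HiSeq, per the labels' protocols. The deposited table gives read counts per miRNA and TPM values for 4 libraries, per the file headers. The deposited TPM values equalled the count per 1000000 reads of the library, with no length term, and were used only for this check. The sources used here do not give the aligner, counting tool, build or miRNA annotation.

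Groups were taken from sample titles. TMM factors came from edgeR 4.0.16 in R 4.3.3 on all 847 rows, of which 43 have names of predicted miRNAs. Ratios, odds ratios and shares had 95% exact intervals (SciPy 1.17.1). Those of ratios and odds ratios were checked on simulated counts that held counting error alone, so the check covers no further spread. A count of 0 would enter as 3 counts, between 7.65 and 15.5 CPM. Each group is 1 library, so intervals cover counting error only. The files give no molecular identifiers, so copies of 1 molecule could not be told apart and the intervals may be too narrow. The additive model (tissue and state, at least 30 counts in some library) used edgeR's quasi-likelihood test, with DESeq2 1.42.0 and limma 3.58.1 (prior count 2) as alternatives. Named miRNAs are the members, rows of the paralogous clusters, seed relatives and the 5 rows nearest in profile. The members, lists and tests were chosen with earlier results of these data known. No member with at least 30 counts matched another row within 3% or 2 counts in all libraries.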

Additional observations from a re-analysis of the deposited data

Results flagged for a closer look

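The AML ratio ran in opposite directions in the 2 tissues for 4 members and for the cluster sum, in each case with intervals that excluded 0 in both tissues. Opposite directions by the same rule were common, in 53.8% of the 186 miRNAs compared in both tissues and in 30.1% with AML higher in BM and lower in spleen. In log2 units, spleen minus BM, the gap was -2.05 for miR-106b-3p, -2.12 for miR-25-5p, -1.63 for miR-25-3p, -1.26 for miR-93-5p and -1.71 for the cluster sum. With 1 library per group the difference was not tested over replicates, and the intervals cover counting error only.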

How the results depend on the processing

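No paired analysis was possible, because each group is 1 library and the sample titles do not say whether BM and spleen came from the same mice. AML and normal were matched by tissue in the additive model. With 1 library per group, none could be left out of a comparison. When libraries were scaled by totals that leave out the 10 most abundant rows, the cluster sum stood at 0.77 for AML BM over normal BM and at 1.10 for normal spleen over normal BM. With DESeq2 size factors it stood at -1.37 for AML spleen over normal spleen and 1.16 for normal spleen over normal BM, and the gap of the AML ratio, spleen minus BM, at -1.98. On total counts these were -0.88, 0.76 and -1.50, and 1 member instead of 2 was called for normal spleen over normal BM. Without miR-92a-3p the ratio of the cluster sum to miR-17~92 moved to 0.62 for AML BM over normal BM, -0.025 for AML spleen over normal spleen, 0.88 for normal spleen over normal BM and 0.24 for AML spleen over AML BM. The last of these was -0.12 [-0.23 to -0.02] with that row. Its sign changed without the row, though counting error covers the value of 0.24 [-0.06 to 0.55]. Of 60 values of the 5 members compared under another scaling, 48 stayed within their counting interval and 12 moved beyond it. The ratio of AML spleen to normal BM, whose scaling alternatives were chosen after seeing the data, changed sign for the cluster sum on totals without the 10 most abundant rows, at 0.058. For miR-106b-5p, AML spleen over normal spleen excluded 0 on total counts, and normal spleen over normal BM with DESeq2 size factors and without the 10 most abundant rows. A minimum of 1 or 100 counts left the number of members called as it was in all 4 comparisons, and the additive model called 0 members under each alternative. Depth limits miR-106b-5p, with 22 to 61 counts, and miR-93-3p, with 2 to 14.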
